A study of Mus musculus with 2 samples.

Results

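The cell cycle genes described here are 49 protein-coding genes, 22 listed as S-phase and 27 as mitotic genes, out of 32285 genes in the deposited matrix. They were picked from a list of symbols by their known roles, with earlier results of these data known, and each symbol matched a single gene. The S-phase members load and start replication origins, build DNA and its precursors, and repair replication forks. Most of the mitotic members drive entry into mitosis, build the spindle and kinetochores, or split the cell.

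Origin loading and firing is represented by *Mcm2*, *Mcm3*, *Mcm4*, *Mcm5*, *Mcm6*, *Mcm7*, *Cdc6*, *Cdt1*, *Cdc45* and *Gins2*. *Dtl*, a subunit of the ubiquitin ligase that destroys *Cdt1*, limits origins to a single firing. DNA and nucleotide synthesis is represented by *Pcna*, *Pola1*, *Rrm1*, *Rrm2* and *Tyms*, and repair and chromatin at forks by *Blm*, *Brip1*, *Exo1*, *Hells* and *Rad51ap1*. *E2f8* represses E2F targets. The mitotic cyclins and kinases are *Ccna2*, *Ccnb1*, *Ccnb2*, *Cdk1*, *Aurka*, *Aurkb*, *Bub1*, *Bub1b*, *Plk1* and *Ttk*. *Cenpe*, *Cenpf* and *Knl1* belong to the kinetochore, *Aspm*, *Ckap2l*, *Hmmr*, *Kif11*, *Kif20b*, *Kif4*, *Nusap1* and *Tpx2* to the spindle and its motors, and *Anln*, *Ect2* and *Kif23* to cytokinesis. *Mki67* and *Top2a* act on chromosome structure, and *Neil3*, listed with the mitotic members, is a DNA glycosylase.

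In a dividing cell, E2F factors switch on the S-phase genes at the start of replication, and the MuvB complex with B-MYB and FOXM1 later switches on the mitotic genes. Both groups fall silent when a cell leaves the cycle. In the fetal testis, Sertoli cells and interstitial progenitors divide, fetal Leydig cells, which make androgens, divide little, and male germ cells stop dividing at about the stage sampled here. Erythroid precursors divide as they mature.

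Testes of mouse embryos at E14.5 (embryonic day) were profiled by single-nucleus multiome, which reads RNA and open chromatin (ATAC) from the same nucleus. All embryos carried the transgene *Nr5a1*-cre, active in gonadal somatic cells, and the reporter *Rosa*-tdTomato. There was no other genotype or treatment. Each assay had 1 library, and the sources used here do not state the number of embryos in it. Nuclei are not replicates, so no test was possible. Intervals are exact 95% intervals unless another kind is named, and they cover counting error only.

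After filtering, 7197 nuclei with 76670523 RNA molecules (UMIs) were kept, with a median of 7949 UMIs and 4477 fragments each. All 9833 barcodes of the matrix were shared by the RNA and ATAC libraries. Nuclei were clustered on both assays after the members, the other listed cell cycle genes and the peaks at their promoters had been taken out. The 12 clusters were named from marker genes. The 7 large classes were progenitor-like (2509 nuclei), germ-like (967), Sertoli-like (846), Leydig-like (794), contractile-like (757), mesonephric mesenchyme-like (384) and surface epithelium-like (575). The 5 small classes were erythroid-like (44 nuclei), pericyte-like (66), immune-like (69), supporting-like (83) and endothelial-like (103). Levels are given as CPM, the UMIs of a gene or set for every 1000000 UMIs of the class. The germ markers summed to 1430 CPM in germ-like nuclei and 29.0 to 184 CPM elsewhere, and the Leydig markers to 4640 CPM in Leydig-like nuclei and 261 to 704 CPM elsewhere. The progenitor markers summed to 2100 CPM in progenitor-like, 1660 in contractile-like and 631 in Leydig-like nuclei. Taking out the listed genes did not free the clustering of the cycle. At cluster resolution 0.6 and from RNA alone, a separate progenitor-like cluster (541 and 556 nuclei) still had *Neil3*, *Ckap2l* and *Knl1* among its leading genes. The supporting-like name is weak, since its marker score (0.676) lay close to that of mesonephric tubule markers (0.599).

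The promoters of S-phase and mitotic members carried different motifs. RefSeq promoter sequences (build GRCm38.p6, which is mm10, from 250 bases before to 50 bases after the start) matched 43 of the 49 members, all but *Mcm4*, *Gins2*, *Exo1*, *Ccna2*, *Aurkb* and *Tpx2*. Both strands were searched for an E2F site (TTCCCGC or its variants with other middle bases, namely TTCGCGC as well as the form TTGCCGC and the further form TTGGCGC), for the cell cycle homology region CHR (TTTGAA or TTCGAA), at which MuvB binds, and for the CCAAT box of NF-Y (CCAAT). An E2F site stood in 15 of 19 S-phase promoters (78.9%), 5 of 24 mitotic promoters (20.8%) and 12.2% of all 17751 promoters of the same length. The CHR stood in 4 of 19 S-phase promoters (21.1%), 21 of 24 mitotic promoters (87.5%) and 17.2% of all promoters. CCAAT was about equally common in both sets, at 78.9% and 79.2%, against 38.3% of all promoters. A match is a description of letters and does not show binding. E2F sites can overlap CCAAT boxes, as in the *E2f8* promoter.

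The 10 promoters printed here are from members on which the results below turn, or show the motif types most plainly. Each runs from 120 bases before to 25 bases after the start, in the direction of transcription, with the searched motifs in capitals. *Mcm6*, *Dtl* and *Hells* show S-phase promoters with E2F sites. *E2f8*, a repressor of E2F targets, carries all of the motifs. Its RefSeq start lay 555 bases from the deposited start that was used for its promoter peak. That peak ends at chr7:48881622, inside the printed stretch, and the E2F and CCAAT matches lie outside the peak. *Top2a*, *Cenpf*, *Bub1*, *Ccnb2* and *Kif23* show mitotic promoters with a CHR and CCAAT boxes. *Neil3* has none of the motifs in this stretch. The last capital of the *Mcm6* line begins a motif that runs past the window.
Mcm6 (chr1:128359681-128359825, minus strand): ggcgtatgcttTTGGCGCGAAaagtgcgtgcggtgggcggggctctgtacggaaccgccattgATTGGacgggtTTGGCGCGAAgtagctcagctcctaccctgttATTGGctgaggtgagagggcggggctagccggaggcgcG
Dtl (chr1:191575520-191575664, minus strand): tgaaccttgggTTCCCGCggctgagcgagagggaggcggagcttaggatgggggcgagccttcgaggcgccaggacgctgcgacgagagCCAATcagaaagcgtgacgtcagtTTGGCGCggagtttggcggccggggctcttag
Hells (chr19:38930870-38931014, plus strand): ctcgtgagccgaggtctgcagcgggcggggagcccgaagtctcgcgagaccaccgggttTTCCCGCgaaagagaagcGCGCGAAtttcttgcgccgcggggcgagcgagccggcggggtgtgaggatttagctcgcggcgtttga
E2f8 (chr7:48881572-48881716, minus strand): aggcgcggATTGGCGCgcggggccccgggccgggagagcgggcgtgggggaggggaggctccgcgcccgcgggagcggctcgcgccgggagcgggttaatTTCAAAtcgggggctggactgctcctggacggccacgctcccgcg
Top2a (chr11:99024165-99024309, minus strand): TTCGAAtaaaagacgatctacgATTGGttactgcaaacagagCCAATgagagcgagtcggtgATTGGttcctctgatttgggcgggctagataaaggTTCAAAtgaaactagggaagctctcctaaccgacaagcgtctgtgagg
Cenpf (chr1:189688062-189688206, minus strand): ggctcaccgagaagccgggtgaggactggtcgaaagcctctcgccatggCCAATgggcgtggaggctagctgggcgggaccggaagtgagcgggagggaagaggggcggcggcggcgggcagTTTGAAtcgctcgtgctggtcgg
Bub1 (chr2:127831835-127831979, minus strand): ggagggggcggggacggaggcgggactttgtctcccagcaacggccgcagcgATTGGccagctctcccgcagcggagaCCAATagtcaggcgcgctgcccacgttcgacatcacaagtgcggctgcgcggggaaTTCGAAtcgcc
Ccnb2 (chr9:70421530-70421674, minus strand): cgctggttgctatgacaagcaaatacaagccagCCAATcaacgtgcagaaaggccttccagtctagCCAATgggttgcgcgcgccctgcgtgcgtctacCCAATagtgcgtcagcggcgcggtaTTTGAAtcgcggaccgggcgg
Kif23 (chr9:61946775-61946919, minus strand): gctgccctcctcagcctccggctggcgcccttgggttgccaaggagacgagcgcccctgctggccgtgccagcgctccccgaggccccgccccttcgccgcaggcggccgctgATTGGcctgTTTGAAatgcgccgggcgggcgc
Neil3 (chr8:53639041-53639185, minus strand): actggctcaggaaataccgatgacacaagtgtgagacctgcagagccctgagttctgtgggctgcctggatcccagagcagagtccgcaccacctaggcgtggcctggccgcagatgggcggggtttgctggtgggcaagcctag

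Levels in CPM are compared between classes and not between genes. All 49 members were detected, with 538 to 35562 UMIs per S-phase member (median 1805) and 586 to 19104 per mitotic member (median 6538). The summed S-phase members stood at 1526 CPM (1508 to 1544) in progenitor-like nuclei, 1661 in germ-like, 1569 in Sertoli-like, 1485 in surface epithelium-like, 1425 in contractile-like, 1328 in mesonephric mesenchyme-like and 714 in Leydig-like nuclei. The germ-like level rested on *Pola1*, *Hells*, *Blm* and *Brip1*, which made 72.9% of its S-phase UMIs and 59.1% to 61.9% of those of the other large classes. Without these 4 genes, a sum added after the values had been seen, the germ-like level was 0.745 of the progenitor-like level (0.724 to 0.766), and with them 1.088 (1.071 to 1.106). With all members, 6 of the 7 large classes lay within a narrow range, and Leydig-like nuclei lay well below it. The summed mitotic members stood at 3087 CPM (3062 to 3113) in progenitor-like nuclei, 2725 in Sertoli-like, 2636 in surface epithelium-like, 2610 in germ-like, 2282 in contractile-like, 2065 in mesonephric mesenchyme-like and 900 in Leydig-like nuclei. Surface epithelium-like and germ-like nuclei could not be told apart on the mitotic sum within counting error, with intervals of 2594 to 2678 and 2587 to 2633 CPM.

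Among the small classes, erythroid-like nuclei were highest in both sets, at 3729 CPM for S phase and 8507 CPM for mitosis. Nuclei with 0.5% or more hemoglobin UMIs had been filtered out, so this class holds only erythroid-like nuclei low in hemoglobin RNA. Erythroid-like nuclei held the highest level of 21 of 22 S-phase members and 26 of 27 mitotic members over all 12 classes, the exceptions being *Hells* and *Cenpf*, which were highest in germ-like nuclei. *Mki67*, which coats mitotic chromosomes and is the usual proliferation marker, stood at 1516 CPM in erythroid-like nuclei. It stood at 287 CPM in progenitor-like, 162 in germ-like, 201 in Sertoli-like and 91.6 in Leydig-like nuclei. Supporting-like nuclei were the lowest small class, at 843 CPM for S phase and 1173 CPM for mitosis. Classes of under 100 nuclei rest on few nuclei, which the counting intervals do not reflect.

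**Figure D1:**
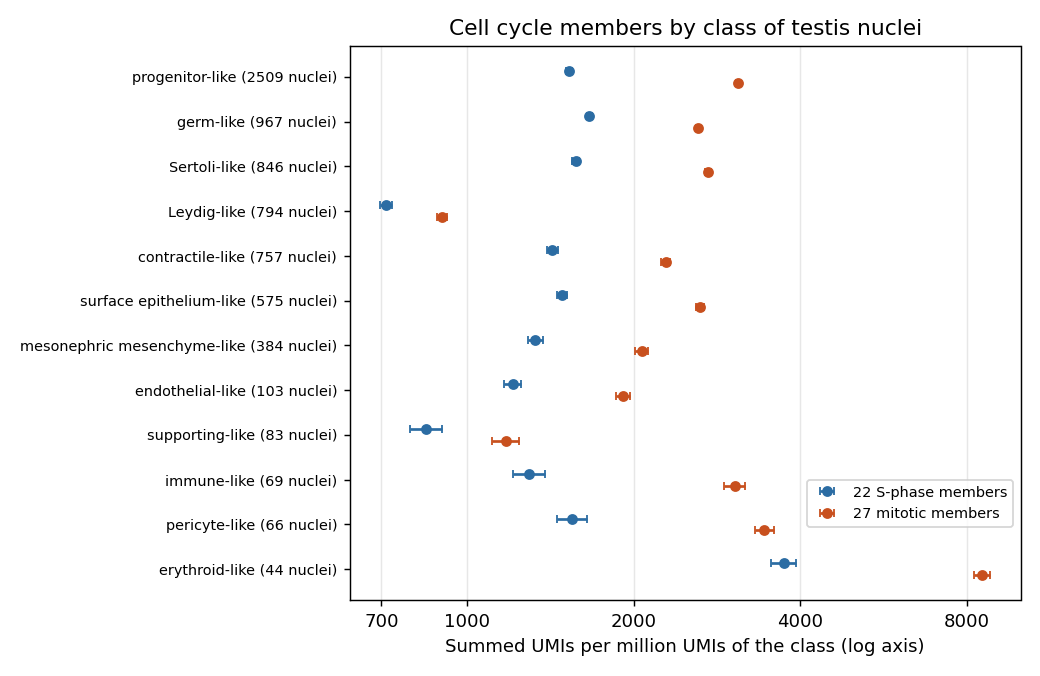
Summed CPM (log axis) of the 22 S-phase members (blue) and the 27 mitotic members (orange) in each of the 12 classes, with exact 95% Poisson intervals as bars. Leydig-like nuclei (714 and 900 CPM) lie lowest, and erythroid-like nuclei (3729 and 8507 CPM) highest, for both sets.

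The balance of the sets also differed between classes. Relative to progenitor-like nuclei, the ratio of mitotic to S-phase UMIs was 0.777 in germ-like nuclei (0.761 to 0.792, from the log odds ratio of the 4 sums). It was 0.859 in Sertoli-like nuclei (0.838 to 0.879) and 0.623 in Leydig-like nuclei (0.601 to 0.646). With cell cycle genes kept in the clustering, where the progenitor-like name fell on cycling nuclei, the germ-like and Sertoli-like balances were 0.423 and 0.470. With *Pola1*, *Hells*, *Blm* and *Brip1* left out of the S-phase sum alone, the germ-like balance was 1.135 (1.101 to 1.17), and the Sertoli-like balance was 0.832. The mitotic sum then still held *Cenpf*, *Kif20b*, *Ect2* and *Bub1*. These made 41.7% of the mitotic UMIs of germ-like and 15.7% of those of progenitor-like nuclei. The turn thus came with genes left out on the S-phase side only, and the balance without both groups was not computed. The other large classes lay at 0.769 to 0.877. Immune-like (1.16), erythroid-like (1.13) and pericyte-like nuclei (1.10) lay above progenitor-like nuclei. With all members summed, every other large class had fewer mitotic UMIs per S-phase UMI than progenitor-like nuclei, and Leydig-like nuclei had the fewest.

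Leydig-like nuclei held less of both sets than progenitor-like nuclei, and the mitotic members differed more. This comparison sets the interstitial class with progenitor markers against the steroidogenic class. The summed S-phase members were 2.14-fold higher in progenitor-like nuclei (2.08 to 2.20) and the summed mitotic members 3.43-fold higher (3.35 to 3.51). The mitotic ratio moved to 5.40 with Scrublet's automatic doublet threshold, and to 8.36 with cell cycle genes kept in the clustering, where the progenitor-like name fell on a cluster of cycling nuclei. At least 2-fold higher levels were found for 15 of 22 S-phase and 27 of 27 mitotic members, or 42 of 49, while 13.7% of all 11778 genes with at least 100 UMIs over both classes passed the same fold. None of the members was at least 2-fold lower, against 10.9% of all genes. The median log2 ratio was 1.10 over S-phase members and 1.76 over mitotic members, beside -0.02 over all genes. Leydig-like nuclei were lowest of the 7 large classes for 27 of 27 mitotic and 17 of 22 S-phase members. The germ-like to Leydig-like interval held 1 for 2 mitotic and 6 S-phase members, so for these the order of the 2 classes was within counting error. The S-phase exceptions were *Gins2*, *Rrm2*, *E2f8* and *Mcm6*, which were lowest in germ-like nuclei, and *Mcm3*, which was lowest in mesonephric mesenchyme-like nuclei. Of the germ-like exceptions, *E2f8* alone had a germ-like to Leydig-like interval below 1, so the order of the others was within counting error. The *Mcm3* order was not given an interval.

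The largest ratios belonged to mitotic members. *Neil3*, a DNA glycosylase expressed in dividing cells, stood at 28.6 CPM in Leydig-like nuclei and 142 CPM in progenitor-like nuclei, a 4.95-fold difference (4.35 to 5.65). *Ckap2l*, a spindle protein, was 4.45-fold higher (3.64 to 5.49), and *Ttk*, a kinase of the spindle checkpoint, was 4.08-fold higher (3.50 to 4.78). *Kif23*, the motor of the central spindle in cytokinesis, was 4.06-fold higher (3.57 to 4.63), and *Kif11*, the motor that separates spindle poles, was 3.91-fold higher (3.53 to 4.35). The smallest ratios all belonged to S-phase members. These were *Mcm3* (1.59, 1.30 to 1.94), *Mcm6* (1.6, 1.44 to 1.79) and *Mcm7* (1.63, 1.34 to 2.0), subunits of the replicative helicase, then *Gins2* (1.73, 1.21 to 2.52), a helicase cofactor, and *Blm* (1.73, 1.57 to 1.92), a helicase of recombination repair.

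The main regulators and markers of the cycle were also higher in progenitor-like nuclei. *Cdk1*, the kinase that starts mitosis, was 3.28-fold higher in progenitor-like nuclei (2.70 to 4.01). Its partners *Ccna2* and *Ccnb1* were 3.77-fold (2.84 to 5.09) and 2.68-fold higher (2.07 to 3.50). *Plk1*, a kinase of mitotic entry and exit, was 2.98-fold higher (1.93 to 4.81), from levels of 8.04 and 2.69 CPM. *Mki67* was 3.13-fold higher (2.90 to 3.37) and *Top2a*, the topoisomerase that untangles chromosomes, 3.38-fold higher (3.15 to 3.62). On the S-phase side, the clamp *Pcna* was 2.03-fold (1.67 to 2.49), the helicase subunit *Mcm2* 1.74-fold (1.38 to 2.21) and the ribonucleotide reductase subunit *Rrm2* 2.16-fold higher (1.55 to 3.07). *E2f8* was 2.22-fold higher (1.80 to 2.75).

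**Figure D2:**
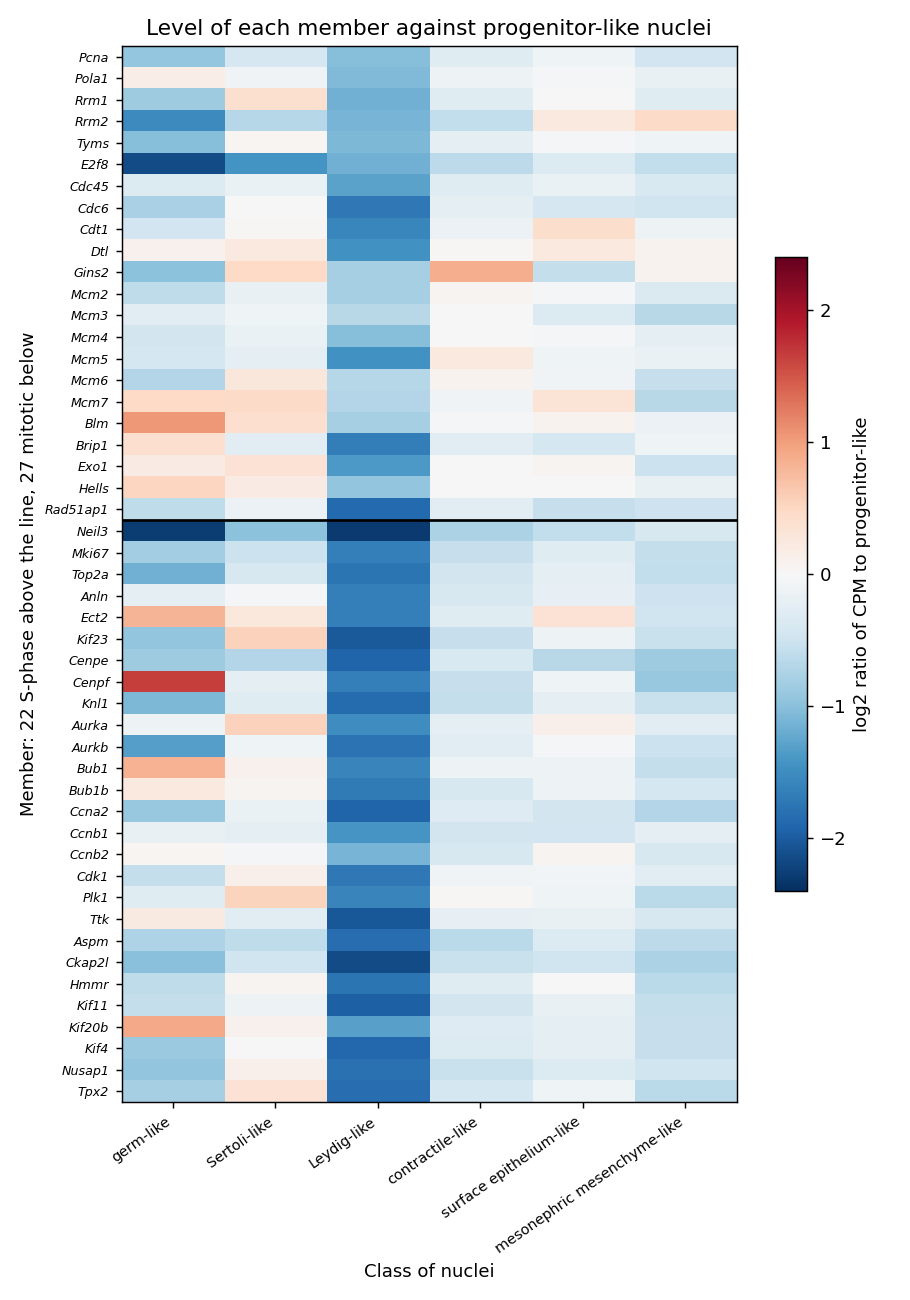
Color shows the log2 ratio of each member's CPM to its CPM in progenitor-like nuclei for the 6 other large classes, with the 22 S-phase members above the line and the 27 mitotic members below, ordered by role. The Leydig-like column is blue in every row, and the germ-like column holds both the darkest red (Cenpf) and, at Neil3 and E2f8, some of the darkest blue cells.

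The contractile-like, mesonephric mesenchyme-like and surface epithelium-like classes lay closer to progenitor-like nuclei. The median log2 ratio to progenitor-like nuclei over the mitotic members was -0.39 in contractile-like, -0.18 in surface epithelium-like and -0.56 in mesonephric mesenchyme-like nuclei, beside -0.03, -0.03 and -0.08 over all genes. Over the S-phase members it was -0.10, -0.03 and -0.26.

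By role, the gap to Leydig-like nuclei was wider for mitotic groups. The Leydig-like level was 0.535 of the progenitor-like level for the 10 origin loading and firing genes, 0.476 for DNA and nucleotide synthesis and 0.449 for repair and chromatin genes at forks. *Dtl* differed by 2.73-fold in the same direction (2.44 to 3.05). The fraction was 0.314 for mitotic cyclins and kinases, 0.291 for spindle genes and motors, 0.282 for kinetochore genes and 0.296 for cytokinesis genes.

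Other cell cycle genes, listed by name, were also mostly higher in progenitor-like nuclei. Of 30 other S-phase genes, 14 were at least 2-fold higher in progenitor-like than Leydig-like nuclei, against 13.7% of all genes, led by *Dscc1* (3.73-fold), *Clspn* (3.65) and *Mcm10* (3.56), with *Ubr7* (1.09) and *Slbp* (1.26) near the low end. Of 50 other mitotic genes, 41 passed, led by *Psrc1* (4.95), *Pimreg* (4.57) and *Sgo1* (4.31), with *Ckap5* (0.948), *Lbr* (0.965) and *Jpt1* (1.14) at the low end. Of 18 G1 and transcription regulators, 15 had enough UMIs and 6 passed, with *E2f7* (4.17), *E2f1* (3.15) and *Ccne1* (2.76) largest and *E2f3* (0.859), *Lin52* (0.866) and *Ccnd2* (1.01) smallest. *E2f7* and *E2f1* are an E2F repressor and an E2F activator, and *Ccne1* is the cyclin of S-phase entry.

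To compare single nuclei at equal depth, each nucleus was thinned to 2000 UMIs, leaving out 74 shallower nuclei, of which 47 were progenitor-like. At least 3 mitotic UMIs were found in 35.3% of progenitor-like nuclei (33.4% to 37.2%), 37.5% of Sertoli-like, 34.5% of surface epithelium-like, 29.2% of contractile-like and 27.4% of mesonephric mesenchyme-like nuclei. With cell cycle genes kept in the clustering, where the progenitor-like name fell on cycling nuclei, the progenitor-like share was 98.97%. The share was 11.1% in Leydig-like nuclei (9.02% to 13.5%), or 18.5% at a limit of 2 UMIs, and 76.1% in germ-like nuclei (73.2% to 78.7%). Without thinning the shares were 42.3% in Leydig-like nuclei and 59.2% in progenitor-like nuclei, and every germ-like nucleus passed. The median depths of these classes were 9629, 6277 and 15461 UMIs. At least 3 S-phase UMIs were found in 37.5% of progenitor-like, 42.2% of Sertoli-like, 57.2% of germ-like and 14.2% of Leydig-like nuclei. Without *Pola1*, *Hells*, *Blm* and *Brip1*, and with the limit kept at 3 UMIs, the shares were 14.99%, 18.0%, 7.57% and 4.3% in the same order. Germ-like nuclei then lay below progenitor-like nuclei, a turn favored by choosing these genes for their germ-like UMIs. Some nuclei lay near the limit, with 2 or 3 mitotic UMIs, namely 31.3% of germ-like, 14.8% of progenitor-like and 10.4% of Leydig-like nuclei.

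No class here is known to lack these genes, so no class gives a pure background of free RNA. The largest free RNA share that the markers of other classes allowed was 7.32% of UMIs in progenitor-like, 8.4% in Leydig-like and 30.4% in germ-like nuclei. After subtraction at those shares, the progenitor-like to Leydig-like ratio was 2.37 for S-phase and 4.16 for mitotic members. The subtraction was made on class sums, and no share of nuclei by UMI number was computed after it.

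Leydig-like nuclei with mitotic UMIs differed from the other Leydig-like nuclei in doublet score, marker levels and depth. Of the 88 Leydig-like nuclei with at least 3 mitotic UMIs, 50% lay over the automatic threshold of the doublet caller Scrublet, against 16.5% of the other 703. Their 6 progenitor markers summed to 865 CPM against 586, and their 6 Leydig markers to 3010 CPM against 4950. In the 38 Leydig-like nuclei with at least 3 UMIs of both sets, the median number of fragments was 2.82 times, and of UMIs 1.77 times, that of nuclei with fewer than 3 of each. The same ratios in progenitor-like nuclei were 1.23 and 1.45. With nuclei over the automatic threshold left out of the same clusters, a step added after seeing the data, 6.97% of 631 Leydig-like nuclei (5.11% to 9.25%) and 34.0% of progenitor-like nuclei had at least 3 mitotic UMIs. The part of doublets in these shares was not tested.

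**Figure D3:**
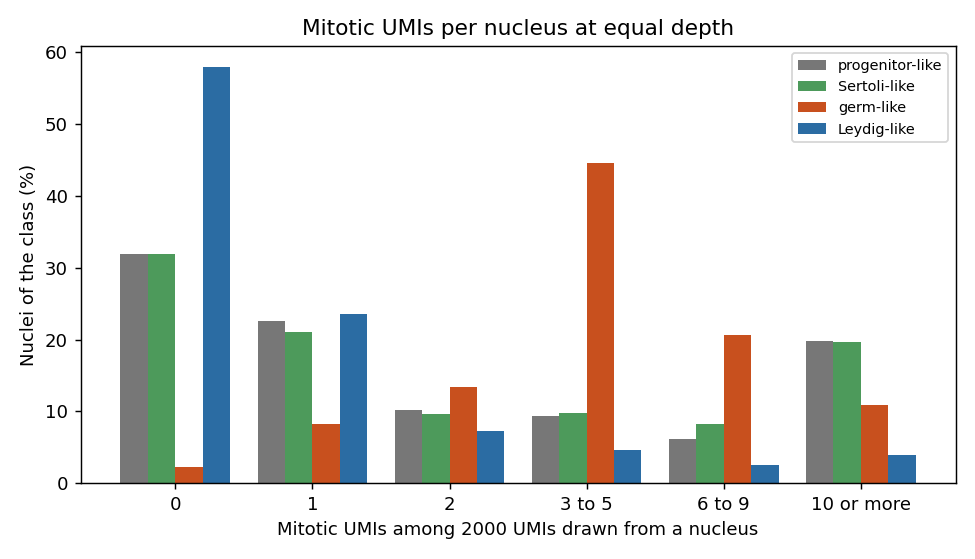
Share of nuclei (%) by number of mitotic UMIs among 2000 UMIs drawn from each nucleus, for progenitor-like (gray), Sertoli-like (green), germ-like (orange) and Leydig-like (blue) nuclei. Germ-like nuclei peak at 3 to 5 UMIs (44.6%), whereas progenitor-like and Sertoli-like nuclei hold 31.9% with none and 19.8% and 19.6% with 10 or more.

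Germ-like nuclei spread their mitotic UMIs differently from the somatic classes. Progenitor-like nuclei fell into many with none (31.9%) and a group with 10 or more of 2000 (19.8%, 18.2% to 21.4%), and Sertoli-like nuclei did likewise (31.9% and 19.6%). In germ-like nuclei only 2.28% had none and 10.9% had 10 or more (8.99% to 13%), while 44.6% had 3 to 5. The median was 4 mitotic UMIs per germ-like nucleus and 1 per progenitor-like nucleus. The mean over these equally deep nuclei was 5.31 in germ-like and 5.01 in progenitor-like nuclei, whereas the sum over all UMIs, in which deeper nuclei weigh more, was lower in germ-like nuclei (2610 against 3087 CPM). The order of the mitotic level of these classes thus turned with the weight given to each nucleus. Just 1 of 965 germ-like nuclei had no UMI of either set, against 272 of 2462 progenitor-like and 29.6% of Leydig-like nuclei.

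A few genes gave many of the mitotic UMIs of germ-like nuclei. *Cenpf*, a kinetochore protein of late G2 and mitosis, stood at 487 CPM in germ-like nuclei, 153 in progenitor-like, 142 in surface epithelium-like, 132 in Sertoli-like, 104 in contractile-like, 81.6 in mesonephric mesenchyme-like and 49.2 in Leydig-like nuclei. Germ-like nuclei stood alone, at 3.18-fold the progenitor-like level (3.04 to 3.31). After thinning, 57.0% of germ-like nuclei had a *Cenpf* UMI, against 16% of progenitor-like and 6.57% of Leydig-like nuclei. *Kif20b*, a motor of cytokinesis, was 1.88-fold higher in germ-like than progenitor-like nuclei (1.79 to 1.98), *Bub1*, a checkpoint kinase at kinetochores, 1.78-fold (1.67 to 1.90) and *Ect2*, which starts the cleavage furrow, 1.76-fold (1.68 to 1.86). Among S-phase members, *Blm* was 2.05-fold higher (1.93 to 2.17).

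*Cenpf*, *Kif20b*, *Ect2* and *Bub1* together made 41.7% of the mitotic UMIs of germ-like nuclei and 15.1% to 18.6% of those of the other 6 large classes. Without *Cenpf*, 63.0% of germ-like nuclei had at least 3 mitotic UMIs, and without these 4 genes 38.7% did (35.6% to 41.8%). The same 4 genes left out gave 32.6% in progenitor-like, 34.99% in Sertoli-like and 9.23% in Leydig-like nuclei. These sums were added after the values had been seen. Of the germ-like nuclei with at least 3 mitotic UMIs, 19.9% lay over the automatic doublet threshold, against 33.3% of the others. Their progenitor markers summed to 278 CPM against 485, their Leydig markers to 277 against 412 and their germ markers to 1550 against 1150. The subtraction of free RNA left the germ-like mitotic sum at 2649 CPM. The part of free RNA or doublets in the spread of mitotic UMIs over germ-like nuclei was not tested.

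Other members fell short in germ-like nuclei. *Neil3* stood at 29.2 CPM, 0.206 of the progenitor-like level (0.188 to 0.226) and close to the 28.6 CPM of Leydig-like nuclei. *E2f8* stood at 6.21 CPM in germ-like nuclei, 27.4 in progenitor-like, 21.8 in surface epithelium-like, 18.1 in mesonephric mesenchyme-like, 17.7 in contractile-like, 12.4 in Leydig-like and 10.2 in Sertoli-like nuclei. Its germ-like level was 0.227 of the progenitor-like level (0.185 to 0.277), the lowest of the large classes. *Rrm2* was at 0.349 (0.262 to 0.459), *Aurkb*, the kinase of the chromosomal passenger complex, at 0.400 (0.324 to 0.491) and *Top2a* at 0.447 (0.428 to 0.466). *Mki67* was at 0.564 (0.539 to 0.589), *Pcna* at 0.529 (0.457 to 0.611), *Ccna2* at 0.536 (0.456 to 0.629), *Mcm2* at 0.659 (0.555 to 0.781) and *Cdk1* at 0.676 (0.606 to 0.753). The intervals of *Ccnb1* (0.879, 0.759 to 1.02) and *Plk1* (0.817, 0.639 to 1.04) held 1.

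Over all members, 1 S-phase and 1 mitotic member were at least 2-fold higher in germ-like than progenitor-like nuclei, against 22.9% of 13333 genes. At least 2-fold lower were 3 S-phase members (*E2f8*, *Rrm2* and *Tyms*) and 5 mitotic members (*Neil3*, *Aurkb*, *Top2a*, *Knl1* and *Ckap2l*), against 15.5% of all genes. The members' shares past 2-fold were thus near or under the background in both directions. The median log2 ratio was -0.45 over S-phase and -0.61 over mitotic members, beside 0.22 over all genes. By role, repair and chromatin genes at forks were 1.47-fold higher in germ-like nuclei (1.43 to 1.51). Kinetochore genes were at 1.14 of the progenitor-like level with *Cenpf* and at 0.52 (0.502 to 0.538) without it. Mitotic cyclins and kinases were at 1.12 with *Bub1* and at 0.950 (0.915 to 0.986) without it. Origin loading and firing genes were at 0.755, *Dtl* at 1.08 (1.02 to 1.14), spindle genes and motors at 0.781 and the pair of *Mki67* and *Top2a* at 0.499.

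The listed S-phase and mitotic genes outside the members were also mixed in germ-like nuclei. Of the 30 S-phase and 50 mitotic genes, 3 in each list were at least 2-fold lower, a smaller share than the 15.5% of all genes. Among the S-phase genes *Orc1* (1.42) and *Ung* (1.40) were on the high side and *Dscc1* (0.350), *Uhrf1* (0.428) and *Prim1* (0.441) were lowest. Among the 50 mitotic genes *G2e3* (2.74) alone was at least 2-fold higher, against 22.9% of all genes. It was followed by *Kif14* (1.73) and *Cit* (1.66), and *Pimreg* (0.261), *Psrc1* (0.275) and *Tmpo* (0.470) were lowest. Of 17 regulators with enough UMIs, 5 were at least 2-fold higher and 3 lower, shares near the 22.9% and 15.5% of all genes, with *Cdk6* (4.36), *Mybl2* (2.72) and *Mycn* (2.68) highest and *Cdk2* (0.405), *E2f7* (0.412) and *E2f2* (0.440) lowest.

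To see which members marked the same nuclei, nuclei were split by whether *Mki67* or *Top2a* gave a UMI among 2000, and the other 47 members were compared between the parts. Such a UMI was found in 42.4% of progenitor-like nuclei (40.4% to 44.3%), 330 of 843 Sertoli-like nuclei, 31.1% of germ-like and 18.1% of Leydig-like nuclei. A nucleus counted as without may still hold such UMIs outside the 2000 drawn. The pair stood at 323 CPM in germ-like and 647 CPM in progenitor-like nuclei. Whether this, or the free RNA share of up to 30.4% in germ-like nuclei, affected the germ-like ratios below was not tested. In progenitor-like nuclei the other mitotic members were higher in nuclei with than without such a UMI by a median of 9.06-fold, and the lowest of them, *Cdk1*, was 5.25-fold higher. In germ-like nuclei the median was 2.02-fold, and 13 of 25 mitotic members reached 2-fold. In Sertoli-like nuclei it was 4.74-fold, and in Leydig-like nuclei 13.8-fold over the 20 members with at least 100 UMIs. Comparing nuclei with 3 or more such UMIs against none, the median was 14.7-fold in progenitor-like, 6.61-fold in Sertoli-like and 3.29-fold in germ-like nuclei. In Leydig-like nuclei it was 30.5-fold, with only 28 nuclei at 3 or more.

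*Ttk*, *Bub1* and *Kif20b* were the mitotic members least tied to *Mki67* and *Top2a* in germ-like nuclei. *Bub1* stood at 160 CPM in germ-like nuclei with a *Mki67* or *Top2a* UMI and 128 CPM in those without, a ratio of 1.25 (1.16 to 1.36). In progenitor-like nuclei it stood at 140 and 18.9 CPM, a ratio of 7.41 (6.32 to 8.74). *Kif20b* had ratios of 1.26 (1.19 to 1.33) and 6.01 (5.36 to 6.75) in the same classes, and *Ttk* 1.21 (1.10 to 1.33) and 8.70 (7.39 to 10.3). *Cenpf* stood at 757 and 352 CPM in germ-like nuclei with and without such a UMI, so that even nuclei without it exceeded the 261 CPM of progenitor-like nuclei with it. *Nusap1*, a spindle protein, was the most tied of the mitotic members in germ-like nuclei, at 3.09-fold (2.69 to 3.56), against 11.4-fold in progenitor-like nuclei. In germ-like nuclei both parts had like median depths, 15730 and 15417 UMIs, whereas in progenitor-like nuclei those with a *Mki67* or *Top2a* UMI were deeper (7404 against 5924).

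S-phase members had a lower median ratio than mitotic members. It was 1.55 in progenitor-like (22 members with at least 100 UMIs), 1.22 in Sertoli-like (21) and 2.02 in Leydig-like nuclei (14). In germ-like nuclei it was 1.39 over 20 members, and the S-phase range (1.0 to 2.49) overlapped widely with the mitotic range (1.21 to 3.09). With 3 or more such UMIs against none, the S-phase median was 1.49 in progenitor-like (21 members) and 1.86 in germ-like nuclei (18 members). The order of these classes turned, but only 68 germ-like nuclei had 3 or more, and the medians were given no interval. In progenitor-like nuclei the helicase subunits *Mcm2* (0.761, 0.607 to 0.953) and *Mcm6* (0.792, 0.711 to 0.882) were lower in nuclei with a *Mki67* or *Top2a* UMI than in those without. *E2f8* was the S-phase member most tied to them, at 5.97-fold in progenitor-like nuclei (4.65 to 7.75), followed by *Brip1*, a helicase of crosslink repair, at 3.80-fold (3.46 to 4.18). *E2f8* thus lay within the range of the mitotic members in the same nuclei (5.25 to 13.7), and *Brip1* lay between them and most S-phase members. In germ-like nuclei the ratio of *Brip1* was 1.27 (1.19 to 1.36).

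**Figure D4:**
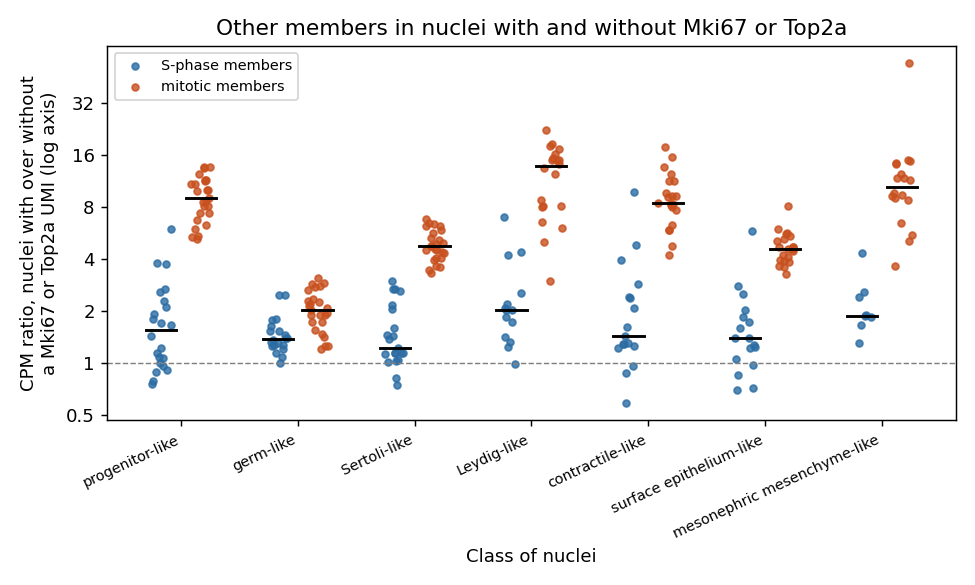
Each point is a member, placed at the ratio (log axis) of its CPM in nuclei with a Mki67 or Top2a UMI among 2000 to its CPM in nuclei without, in each of the 7 large classes (members with at least 100 UMIs in both parts together). Bars are medians. Mitotic members (orange) have a median of 9.06 in progenitor-like and 2.02 in germ-like nuclei, and S-phase members (blue) of 1.55 and 1.39.

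Sertoli-like nuclei were close to progenitor-like nuclei in both sets, with differences in a few genes. None of the members was at least 2-fold higher, against 12.8% of 12003 genes, and *E2f8* alone was at least 2-fold lower, against 11.5%. *E2f8* was at 0.372 of the progenitor-like level (0.299 to 0.460) and *Neil3* at 0.504 (0.464 to 0.547). *Cenpe*, a kinetochore motor, was at 0.614 (0.582 to 0.647), *Rrm2* at 0.625 (0.468 to 0.825) and *Aspm*, a spindle pole protein, at 0.653 (0.607 to 0.702). *Kif23* was 1.47-fold higher in Sertoli-like nuclei (1.38 to 1.56), *Aurka*, the kinase of spindle poles, 1.46-fold (1.23 to 1.74) and *Plk1* 1.44-fold (1.13 to 1.85). *Gins2* (1.39, 1.07 to 1.79) and *Mcm7* (1.37, 1.18 to 1.58) were the highest S-phase members. *Mki67* was at 0.701 (0.666 to 0.738) and *Top2a* at 0.764 (0.731 to 0.799). *Pcna* was at 0.753 (0.641 to 0.882), and the intervals of *Mcm2* (0.878, 0.725 to 1.06), *Cdk1* (1.09, 0.976 to 1.22), *Ccna2* (0.899, 0.760 to 1.06) and *Ccnb1* (0.848, 0.708 to 1.01) held 1. By role, cytokinesis genes were 1.22-fold higher in Sertoli-like nuclei (1.17 to 1.26) and origin loading and firing genes 1.065-fold higher (1.015 to 1.117), while kinetochore genes were at 0.738 (0.714 to 0.762). Mitotic cyclins and kinases were at 1.005 (0.966 to 1.045). The median log2 ratio was -0.04 over S-phase and -0.03 over mitotic members, beside 0.11 over all genes.

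Of the other lists, none of 30 other S-phase genes passed 2-fold in Sertoli-like nuclei, with *Ung* (1.94), *Orc1* (1.58) and *Gmnn* (1.53) highest and *Prim1* (0.531), *Fen1* (0.727) and *Rfc3* (0.755) lowest. Of 50 other mitotic genes, *Rangap1* (2.31) alone passed, followed by *Jpt1* (1.99) and *Kif2c* (1.34), and *Cks1b* (0.592), *Pimreg* (0.661) and *Smc2* (0.661) were lowest. Among 16 regulators with enough UMIs, 2 were at least 2-fold higher and 1 lower, shares near or under the 12.8% and 11.5% of all genes, with *Mycn* (3.34), *Cdk6* (2.79) and *Ccnd2* (2.0) highest and *Ccne1* (0.494), *Ccnd3* (0.629) and *E2f2* (0.660) lowest. In Sertoli-like nuclei those with mitotic UMIs alone had 1.67 times the UMIs and 1.42 times the fragments of nuclei with fewer than 3 of each set. Of Sertoli-like nuclei with at least 3 mitotic UMIs, 25.9% lay over the automatic doublet threshold, against 11.4% of the others.

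Promoter accessibility of the members differed less between classes than their RNA. All 49 members had a peak within 1 kb of the start, 48 of them a single peak, with 219 to 1498 fragments per member in kept nuclei (median 640). Levels were scaled to the fragments at peaks of each class, which made up 40.8% of fragments in progenitor-like, 38.1% in Leydig-like, 36.3% in Sertoli-like and 31.9% in germ-like nuclei. Between progenitor-like and Leydig-like nuclei, the median log2 ratio of promoter fragments was -0.11 over the 49 members, beside -0.10 over 16342 promoters with at least 20 fragments. Of the members, 0 were at least 1.5-fold higher in progenitor-like nuclei and *Plk1* alone was as much lower (0.654, 0.471 to 0.918), against 10.1% of all promoters in either direction. The ratios ran from 0.654 to 1.39. Here and in the promoter comparisons below, the background holds promoters with as few as 20 fragments, all members having more. Counting error alone passes 1.5-fold more readily at few fragments, so the shares are not matched for depth. Scaled to all fragments, the median was -0.01, beside 0.00064 over all promoters, and 0 members were as much higher (12.3% of all promoters) or lower (7.31%). For *Top2a*, whose RNA was 3.38-fold higher, the promoter ratio was 0.936 (0.672 to 1.33), and for *Neil3*, with 4.95-fold higher RNA, it was 0.816 (0.533 to 1.28).

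**Figure D5:**
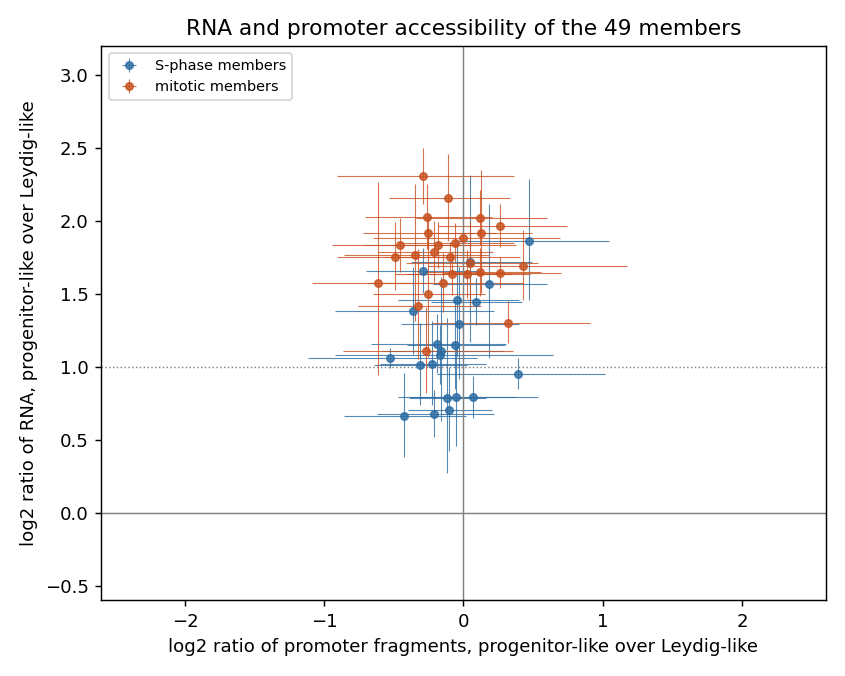
Each point is 1 of the 49 members, with the log2 ratio of promoter fragments on the x axis and of RNA on the y axis, both progenitor-like over Leydig-like, and exact 95% intervals as bars. RNA lies above 0 for every member, whereas promoter ratios, scaled to fragments at peaks, scatter around a median of -0.11.

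Between germ-like and progenitor-like nuclei, the direction of the members' median turned with the scaling. It was 0.30 on the log2 scale, beside 0.28 over 17172 promoters, when scaled to fragments at peaks, and -0.05, beside -0.07, when scaled to all fragments. The ratios that follow are scaled to fragments at peaks, and scaling to all fragments shifts the log2 of each by -0.35 in germ-like and -0.17 in Sertoli-like nuclei. At least 1.5-fold higher were 8 members, against 27.8% of all promoters, and 0 were as much lower, against 10.5%. Scaled to all fragments, 0 members were as much higher, against 15.6% of all promoters, and *Cdt1* alone was as much lower, against 17.8%. The *Cenpf* promoter was 1.39-fold higher (1.13 to 1.72) and the *Blm* promoter 1.58-fold higher (1.28 to 1.95). The largest ratio belonged to *Neil3* (1.86, 1.37 to 2.53), whose RNA was lowest relative to progenitor-like nuclei, and scaled to all fragments the *Neil3*, *Blm* and *Cenpf* ratios were 1.46, 1.24 and 1.09. In Sertoli-like nuclei the median was 0.125, beside 0.03 over 16622 promoters, and turned to -0.04, beside -0.13, when scaled to all fragments. There were 3 members at least 1.5-fold higher (12.0% of all promoters) and 0 as much lower (12.4%) when scaled to fragments at peaks, and 1 higher (8.76%) and 0 lower (17.1%) when scaled to all fragments. Over the 7 large classes the highest promoter level of a member was a median of 1.48 times its lowest, while the same median for RNA was 3.07 for S-phase and 3.78 for mitotic members.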

How the data were processed

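The same nuclei of the testes gave 1 RNA library and 1 ATAC library. The deposited matrix holds UMI counts per gene and transposase cut counts per peak, and a deposited list holds the fragments, all made by the authors with Cell Ranger ARC 2.0.1 on mm10. Fragments overlapping each peak were counted from the list. Nuclei were kept under the study's limits (under 10% mitochondrial, 10% ribosomal and 0.5% hemoglobin UMIs, over 20% of fragments at peaks, 250 to 25000 such fragments and over 500 genes), leaving 7667 of 9833. Free RNA was not removed and the blacklist filter was not applied. The 6.13% of nuclei with the highest Scrublet scores (scanpy 1.11.5), 470, were removed as doublets, in place of the study's caller. Seurat 5.3.0 joined both assays (resolution 0.3) without 147 cell cycle genes and their 147 promoter peaks. UMIs were summed per class. Ratios have exact conditional binomial intervals, levels exact Poisson and shares exact Clopper-Pearson intervals, all covering counting error only. A gene entered a comparison with 100 UMIs over both classes, a promoter with 20 fragments. With 1 library there was no test. The ratio code was tested on simulated data.

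The members and lists were chosen with earlier results of these data known. Named with values are *Mki67*, *Top2a*, *Pcna*, *Mcm2*, *Cdk1*, *Ccna2*, *Ccnb1*, *Plk1*, *Rrm2* and *E2f8*, the 5 largest and 5 smallest member ratios of progenitor-like over Leydig-like, germ-like over progenitor-like and Sertoli-like over progenitor-like nuclei, and the 3 largest and 3 smallest of each other list in these, except 1 item that is not reported here. Other genes were named after their values were seen. Alternatives covered class making, doublets, depth of thinning, minimums, free RNA and the genes summed.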

Additional observations from a re-analysis of the deposited data

How the results depend on the processing

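With 1 library of each assay there is no replicate check. The progenitor-like to Leydig-like ratios stayed above 1 in the alternatives run. The Sertoli-like balance stayed below 1, and the germ-like balance did so except without *Pola1*, *Hells*, *Blm* and *Brip1*. There the germ-like balance was 1.135 and the Sertoli-like balance 0.832. These genes were chosen after seeing the data, as the S-phase members with the most germ-like UMIs, and were left out of the S-phase sum alone. The germ-like S-phase ratio turned from 1.088 to 0.745 without these 4 genes, a fall that their choice favors. With other ways of making classes, removing doublets and setting minimums, 30 to 46 of the 49 members were at least 2-fold higher in progenitor-like than Leydig-like nuclei. The median log2 promoter ratio of the members ran from -0.165 to 0.037, and was -0.014 when scaled to all fragments (chosen after seeing the data), so its sign was not fixed. With that scaling, 0 rather than 8 members had promoters at least 1.5-fold higher in germ-like than progenitor-like nuclei, and 1 rather than 3 in Sertoli-like nuclei. Also chosen after seeing the data, leaving out *Cenpf* turned the germ-like kinetochore ratio from 1.14 to 0.52, and leaving out *Bub1* turned that of mitotic cyclins and kinases from 1.12 to 0.950. The progenitor-like to Leydig-like ratio of S-phase members (2.14) was 1.84 with classes from chromatin alone, 1.94 without doublet removal, 2.87 with Scrublet's automatic threshold, 2.88 with cell cycle genes kept in, 1.74 with minimums of 1000 genes and 1000 fragments, and 2.37 after subtraction of free RNA. In the same order the ratio of mitotic members (3.43) was 2.34, 2.77, 5.40, 8.36, 2.72 and 4.16, and it was 3.65 at resolution 0.6. With cell cycle genes kept in, the progenitor-like name fell on a cluster of cycling nuclei, of which 98.97% had at least 3 mitotic UMIs. The germ-like balance (0.777) was, in the same order, 0.879, 0.815, 0.759, 0.423, 0.760 and 0.741, with 0.750 at resolution 0.6, 0.865 with nuclei weighted equally and 0.861 without *Mki67* and *Top2a*. The Sertoli-like balance (0.859) was 0.920 from chromatin alone, 0.803 with the automatic threshold, 0.470 with cell cycle genes kept in, 0.830 at resolution 0.6, 0.815 with equal weights and 0.896 without *Mki67* and *Top2a*.

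The Leydig-like share with at least 3 mitotic UMIs (11.1%) was 14.1% from chromatin alone, 13.6% without doublet removal, 8.10% with the automatic threshold and 16.6% with the higher minimums. At limits of 2 and 5 UMIs it was 18.5% and 7.59%, and the progenitor-like share (35.3%) was 45.5% and 28.0%. The progenitor-like share was 32.4% from chromatin alone and 37.5% with the automatic threshold. The alternatives that follow were chosen after seeing the data. Leaving out nuclei over the automatic threshold gave 6.97% in Leydig-like, 79.3% in germ-like (from 76.1%) and 33.4% in Sertoli-like nuclei (from 37.5%). The Sertoli-like share then lay below the 34.0% of progenitor-like nuclei, but their intervals overlapped (29.9% to 37.0% and 32.1% to 36.0%). The intervals of these classes also overlapped before this step, so their order was within counting error. Leaving *Cenpf* out gave 63.0% in germ-like nuclei, and leaving out *Cenpf*, *Kif20b*, *Ect2* and *Bub1* gave 38.7% in germ-like and 32.6% in progenitor-like nuclei. The cause of these moves was not tested. No paired analysis was possible because each assay has 1 library.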
